A study of Mus musculus with 4 samples.

Results

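The genes described here encode the core machinery of autophagy, and they were chosen as 40 named genes of the pathway. Of these, 38 had a probe set named for them on the array, out of 19505 gene symbols in all, and each of the 38 had a single probe set. Optn and Vmp1 were not analysed here. The pathway was chosen by the clothianidin minus vehicle differences of Atg2a and Atg2b, which stood among the largest of this same comparison, so the values of this pair are a description and carry no test, and the question was whether the other 36 measured members moved with them.

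Gene expression was measured with Affymetrix whole-transcript arrays in cerebellum taken from C57BL/6N males at an age of 10 weeks. The vehicle group (2 arrays, replicates 7 and 9) received vehicle by mouth for 4 days, and the clothianidin group (2 arrays, replicates 6 and 7) received 50 mg per kg per day of clothianidin, a neonicotinoid insecticide that acts on insect nicotinic acetylcholine receptors. Both groups ran on a rotarod, a motor coordination test, on these days, and brains were taken directly afterwards. Nothing in the labels says that the samples of a group came from separate animals, so p-values cover only the spread among these 4 samples, which may be technical. The 2 arrays a group limit the precision.

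Autophagy encloses cytoplasm in a double membrane, the autophagosome, and delivers it to the lysosome. A kinase complex built around ULK1 starts the process, a lipid kinase complex marks the membrane with phosphatidylinositol 3-phosphate, and ATG2 proteins bridge the endoplasmic reticulum and the growing membrane and carry lipid into it. Ubiquitin-like conjugation then attaches ATG8 proteins (LC3 and GABARAP) to the membrane, where cargo receptors bind them. Neurons depend on this turnover, and in mice the loss of Atg5 or Atg7 from Purkinje cells leads to degeneration of their axons and to cell loss.

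Gabra6, a receptor subunit gene of cerebellar granule cells, was at 17.1 to 17.4 on the log2 scale, and Car8, a Purkinje cell gene, at 18.2 to 18.5, while of the 4 measured midbrain and forebrain markers Tbr1 was at 5.14 to 5.83, Lef1 at 4.67 to 5.40 and Neurod6 at 7.34 to 7.95. The other, Tcf7l2, was at 11.70, 9.69, 9.94 and 9.11 on vehicle replicates 7 and 9 and clothianidin replicates 6 and 7. Markers differed between arrays, those of cerebellar neurons included. All 5 Purkinje cell markers were higher with clothianidin (4 of 5 after quantile normalization), 4 of them without overlap, with a median log2 difference of 0.18 and with Pcp2 at 0.68 and Calb1 at 0.66. The other Purkinje cell markers were at 0.18 (Ppp1r17), 0.155 (Car8) and 0.075 (Pvalb). Of 6 granule cell markers 4 were higher, 2 of them without overlap, with a median of 0.43, and Fat2 was the highest at 0.82. Gabra6 and Cbln1 were lower, at -0.025 and -0.155 (limma adjusted p = 0.997 for each). Over all probe sets 15.1% were higher without overlap. The choroid plexus gene Ttr was at 5.70, 5.67 and 6.38 on vehicle replicates 7 and 9 and clothianidin replicate 6, but at 13.96 on clothianidin replicate 7. Of the 7 choroid plexus markers, 6 were higher with clothianidin, 2 of them without overlap. The median deviation of the 7 from their own means over the arrays was -0.36, -0.29, 0.015 and 0.55 in the same order. All 5 oligodendrocyte markers were lower (4 of 5 after median centring), with a median log2 difference of -0.19. Cnp was at -0.73, Mog at -0.675, Mag at -0.19, Mobp at -0.135 and Mbp at -0.005. Only Cnp was lower without overlap, where 15.5% of all probe sets were. The part of these shifts in the autophagy values was not tested. In tissue RNA, fewer cells of a type and less RNA per cell cannot be told apart.

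Among the 36 other members the difference of Atg2a and Atg2b was not shared as a direction. Clothianidin values were higher on average for 16 and lower for 20, with a median log2 difference of -0.02, and with another scaling the split was 18 to 17 (median centring, 1 at 0) or 14 to 22 (quantile normalization). Over all 22206 probe sets 48.1% were higher and 51.2% lower with a median of -0.01. The difference varied with signal level. Among the 11106 brighter probe sets, those not under the median signal, the median difference was 0.065. Of these, 358 were higher and 106 lower with an unadjusted limma p under 0.05. Of 1412 olfactory and vomeronasal receptor genes, mostly dim, 434 were higher and 972 lower, with a median of -0.15. The 32 other members on the brighter side had a median of -0.02. Shares of all probe sets given here were not split by level. Only 3 of the 36 were at least 1.5-fold apart without overlap of the groups. Rb1cc1 and Atg7 were higher, where 4.04% of all probe sets met the same rule upward, and Atg9a was lower, where 3.57% met it downward. These same 3 genes were the ones with an unadjusted limma p under 0.05, against 2.3% of all probe sets upward and 1.93% downward. None passed limma's Benjamini-Hochberg adjustment over all probe sets (adjusted p = 0.997 for each member). Of all probe sets 0 passed it, 0% in either direction, while 940 had an unadjusted p under 0.05 and a linear model without moderation called 8. An exact permutation test over 2 arrays against 2 cannot give a two-sided p below 0.333.

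**Figure D1:**
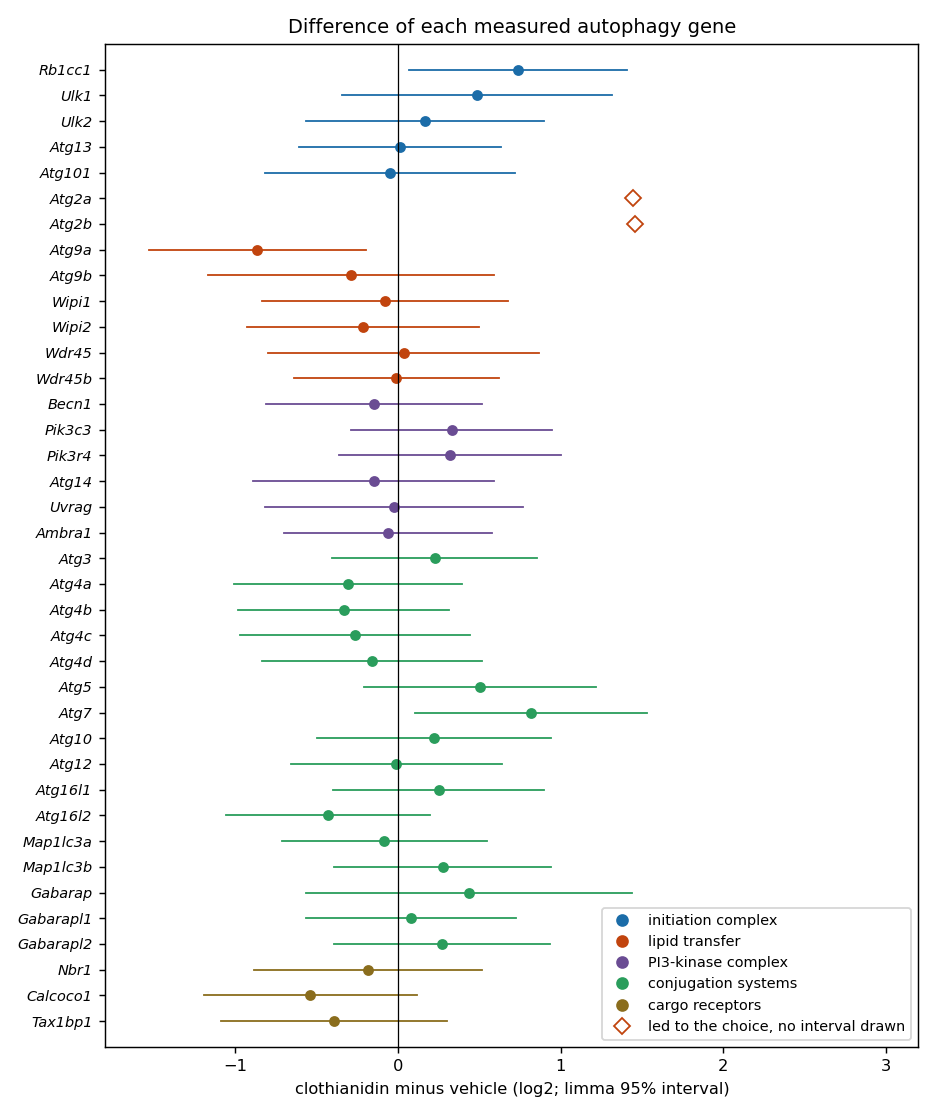
Log2 difference, clothianidin minus vehicle (x axis), of each of the 38 measured autophagy genes (y axis), coloured by role, with limma's 95% interval as a bar. Atg2a and Atg2b are open diamonds with no interval because their difference led to the choice of the pathway; of the 36 intervals only those of Rb1cc1, Atg7 and Atg9a leave out 0.

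The lipid transfer step includes the pair by which the pathway was chosen. Apart from this pair 1 of its 6 measured genes was higher and 5 were lower, from -0.87 to 0.04 on the log2 scale. This split depended on vehicle replicate 7. Without that array Atg9b was at 0.24, Wipi2 at 0.055, Wdr45 at 0.38 and Wdr45b at 0.085. Atg9a and Wipi1 stayed lower. All 8 genes of the step, the pair included, then split into 6 higher and 2 lower. ATG2A and ATG2B are paralogous rod-shaped proteins that act redundantly in carrying lipid to the growing autophagosome. The gene Atg2a (Entrez gene 329015, probe set TC1900000108.mm.2) lies on chromosome 19 from 6241478 to 6262304, and Atg2b (Entrez gene 76559, probe set TC1200002311.mm.2) on chromosome 12 from 105613539 to 105685297, both in RefSeq on GRCm38.p6. Their upstream sequences are shown because these 2 genes differed together, and that of Atg9a because it differed the other way. They are the bases that RefSeq's promoter windows on GRCm38.p6 hold outside the annotated gene, 5′ to 3′ on the strand of the gene, with capitals marking GGGCGG on either strand.
Atg2a (chr19:6241418-6241477, plus strand): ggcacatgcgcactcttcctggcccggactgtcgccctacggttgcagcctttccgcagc
Atg2b (chr12:105685298-105685491, minus strand): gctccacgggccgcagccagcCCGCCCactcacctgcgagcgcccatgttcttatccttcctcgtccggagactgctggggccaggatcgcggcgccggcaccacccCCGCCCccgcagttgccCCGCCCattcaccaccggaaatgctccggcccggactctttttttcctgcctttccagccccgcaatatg
Atg9a (chr1:75192011-75192260, minus strand): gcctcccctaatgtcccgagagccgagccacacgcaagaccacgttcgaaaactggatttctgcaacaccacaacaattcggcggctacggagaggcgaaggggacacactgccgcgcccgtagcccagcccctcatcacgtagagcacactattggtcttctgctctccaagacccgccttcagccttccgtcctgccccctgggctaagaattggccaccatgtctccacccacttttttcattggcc

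The windows, each 300 bases long with 250 before a start site and 50 after it, were searched on both strands for 4 motifs. CACGTG, the core of elements bound by the lysosomal regulators TFEB and TFE3, was in 4 of the 35 windows found for 31 members, those of Atg3, Atg5, Atg7 and Atg14, and in 7.15% of all 32851 windows. It was in none of the windows of Atg2a, Atg2b and Atg9a. TGTTTAC, a FoxO family motif, was in 0 of the 35 and in 3.65% of all windows, and TGATGNAAT, a motif of ATF4 with C/EBP partners, was in 0 of the 35 and in 0.965% of all. GGGCGG, a GC box, was in 20 of the 35 and in 35.7% of all windows, and it marks the window of Atg2b but not that of Atg2a. No motif of the 4 contains another, and a match says only that the letters occur there.

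Atg2a was at 6.21 and 5.90 on vehicle replicates 7 and 9 and at 7.40 and 7.60 on clothianidin replicates 6 and 7. Both clothianidin arrays stood above both vehicle arrays, with 1.19 between the nearest values. The means were 6.06 ± 0.22 and 7.50 ± 0.14 (SD, n = 2 each), a 2.72-fold higher level with clothianidin. The vehicle values were close to the 95th percentile of 1412 olfactory and vomeronasal receptor genes on these arrays, 5.99, a reference here for dim signal, so the size of the difference is uncertain. Atg2b was at 7.61 and 8.41 under vehicle and at 9.61 and 9.32 with clothianidin, again without overlap, with 0.91 between the nearest values and a 2.74-fold higher level. With each array left out in turn the log2 difference was 1.29 to 1.60 for Atg2a and 1.06 to 1.86 for Atg2b.

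Other genes of the lipid transfer step did not follow. Atg9a encodes the scramblase that spreads incoming lipid over both leaflets of the membrane and rides on the vesicles that seed it. Atg9a was at 13.55 and 13.25 under vehicle and at 12.71 and 12.36 with clothianidin. Both clothianidin arrays lay below both vehicle arrays, and the difference of -0.87 with a standard error of 0.29 was a 1.82-fold lower level (limma adjusted p = 0.997). With each array left out in turn it was -1.04 to -0.69. The second scramblase gene, Atg9b, was at 4.69, 3.63, 4.00 and 3.74 over the arrays, which is within the range of the receptor genes, and its groups overlapped. WIPI proteins bind phosphatidylinositol 3-phosphate and recruit ATG2, and their genes Wipi1, Wipi2, Wdr45 and Wdr45b had log2 differences of -0.08, -0.22, 0.04 and -0.01, with overlap in each, and the sign turned for Wdr45 after quantile normalization and for Wdr45b after median centring. The standard errors of these 4 genes ranged from 0.27 to 0.36, and the highest bound of their limma intervals was 0.87. These intervals cover only the spread among the 4 arrays.

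**Figure D2:**
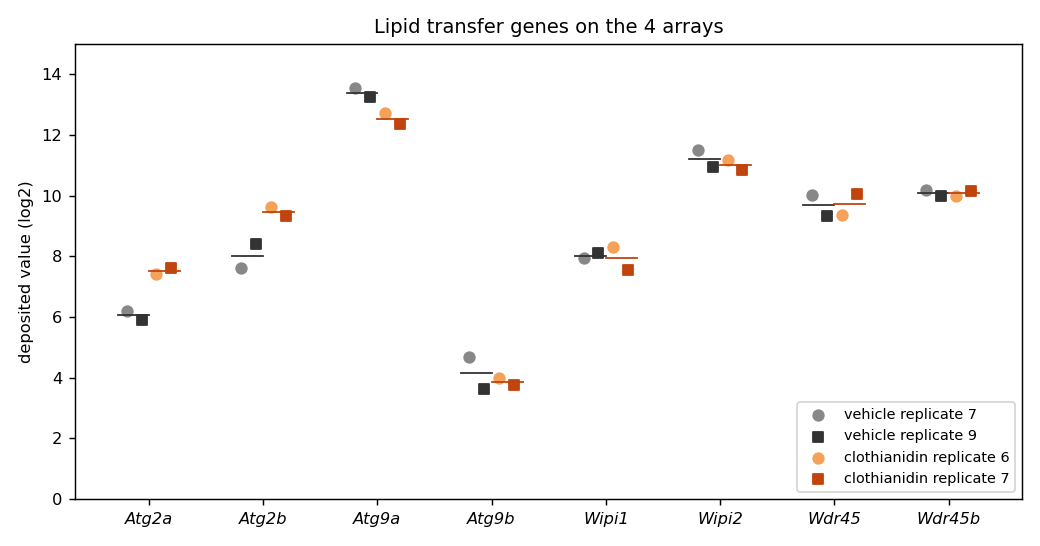
Deposited log2 value (y axis) of the 8 measured lipid transfer genes (x axis) on each of the 4 arrays, with a line at the mean of each group. Values are to be compared within a gene; Atg2a and Atg2b are higher and Atg9a is lower on both clothianidin arrays, and the other 5 genes overlap.

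ATG2 belongs to a family of bridge-like lipid transfer proteins, and its relatives were read beside it. Of 9 listed genes for other bridge-like proteins and a scramblase, 5 were found by symbol. The rest were not matched to older symbols, so they may be on the array under other names. Of the 5 found, 4 were higher and 1 lower with a median log2 difference of 0.32 (5 higher after median centring). Without overlap 3 were higher, where 15.1% of all probe sets were. Vps13d, whose product acts at mitochondria and peroxisomes, was at 8.21 and 7.87 under vehicle and at 9.14 and 8.63 with clothianidin, a difference of 0.85 ± 0.31 (standard error). Vps13a, the gene mutated in chorea-acanthocytosis, was at 10.90 and 10.27 and at 11.18 and 11.32, a difference of 0.67. Vps13c was at 12.26 and 11.92 and at 12.46 and 12.36. These 3 genes are named because they had the smallest limma p of the 5, a choice that favours genes whose groups are apart. The groups did not overlap for any of them, and limma's adjusted p was 0.997 for each. Leaving out vehicle replicate 9 brought the median of the 5 to 0.15, with 3 higher and 2 lower. Leaving out vehicle replicate 7 brought it to 0.63, with all 5 higher.

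The initiation complex had 4 of 5 genes higher with a median log2 difference of 0.17. It had 3 higher and 2 lower with a median of 0.02 without vehicle replicate 9 and of 0.03 without clothianidin replicate 6. The median was 0.34 without vehicle replicate 7 and 0.47 without clothianidin replicate 7. Rb1cc1 encodes FIP200, the large scaffold on which the ULK1 kinase, ATG13 and ATG101 assemble, and it was at 9.52 and 9.99 under vehicle and at 10.53 and 10.46 with clothianidin. The nearest values of the groups were 0.47 apart, and the difference was 0.74 with a standard error of 0.29, a 1.67-fold higher level (limma adjusted p = 0.997). Without vehicle replicate 7 the difference was 0.51, under the 1.5-fold mark, which is 0.58 on the log2 scale. Ulk1, the kinase gene, was at 8.76 and 8.42 under vehicle and at 9.53 and 8.62 with clothianidin. Its difference of 0.49 rested on clothianidin replicate 6 and was 0.03 without that array. The related kinase gene Ulk2 was also highest on clothianidin replicate 6, at 11.04 and 10.69 and at 11.33 and 10.73. The subunit genes Atg13 and Atg101 had differences of 0.01 and -0.05, and Atg13 was at 5.26 to 5.45, within the range of the receptor genes.

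The lipid kinase complex makes phosphatidylinositol 3-phosphate. Of 6 genes 2 were higher and 4 lower, with a median log2 difference of -0.04. The direction turned to 4 higher and a median of 0.23 without vehicle replicate 7, and to 5 higher and a median of 0.09 without clothianidin replicate 7. Without clothianidin replicate 6 the median was -0.11. Pik3c3, the catalytic subunit VPS34, was at 8.39 and 8.54 under vehicle and at 8.76 and 8.83 with clothianidin, and Pik3r4, its regulatory subunit, at 9.20 and 9.30 and at 9.83 and 9.31. Neither gene overlapped between the groups, where 15.1% of all probe sets were higher without overlap, and for Pik3r4 the nearest values were only 0.01 apart. Becn1, the scaffold Beclin 1, had a difference of -0.15 (95% interval -0.81 to 0.51), and Atg14, which directs the complex to autophagosome formation, the same size of difference with an interval of -0.89 to 0.59. Uvrag, the subunit of the endosomal form, and Ambra1, a regulator of Beclin 1, had differences of -0.03 and -0.06. Of 8 measured genes for regulators of the complex 7 were higher with a median of 0.12, or 5 after quantile normalization, and the largest was Nrbf2, a subunit that stimulates VPS34, at 6.99 and 7.36 and at 7.52 and 7.64. Without clothianidin replicate 6 the 8 regulators split into 4 higher and 4 lower with a median of -0.05.

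In the conjugation systems 9 of 16 genes were higher and 7 lower, with a median log2 difference of 0.15. After quantile normalization 8 were higher and 8 lower with a median of 0.05. Without clothianidin replicate 7 the split turned to 7 higher and 9 lower with a median of -0.03, and leaving out vehicle replicate 9 or 7 gave medians of 0.07 and 0.10. The ligase cascade, which activates ATG12 and ATG8 and joins them to their targets, had 5 of 7 higher, or 6 after median centring. Atg7 encodes the E1 enzyme of both reactions and was at 5.88 and 5.50 under vehicle and at 6.76 and 6.25 with clothianidin. The groups did not overlap, and the difference of 0.82 with a standard error of 0.31 was a 1.76-fold higher level (limma adjusted p = 0.997). It was 0.56, also under the 1.5-fold mark, without clothianidin replicate 6. The vehicle values of Atg7 lay under the 95th percentile of the receptor genes, so the size of its difference is uncertain. Atg5, which is joined to ATG12, was at 9.00 and 8.51 and at 9.06 and 9.46, apart by 0.06 at the nearest values, with a difference of 0.51 and a standard error of 0.31.

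The 2 E2 enzyme genes Atg3 and Atg10 had differences of 0.23 and 0.22, and Atg3 did not overlap, at 11.73 and 11.62 under vehicle and at 11.78 and 12.02 with clothianidin. Atg12 itself had a difference of -0.01. Atg16l1, whose product places the ATG12 and ATG5 conjugate on the membrane, was at 7.65 and 7.35 and at 7.87 and 7.63. Its paralog Atg16l2, which cannot replace it in canonical autophagy, went the other way, at 11.39 and 11.65 and at 11.09 and 11.09, a difference of -0.43 with a standard error of 0.27.

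ATG4 proteases cut ATG8 proteins so that they can be joined to lipid and later freed. The 4 genes were all lower, with log2 differences of -0.31 for Atg4a, -0.34 for Atg4b, -0.27 for Atg4c and -0.16 for Atg4d. The Atg4a values were 5.18 to 5.81, within the range of the receptor genes, so the size of its difference is uncertain. Only Atg4b did not overlap, at 11.77 and 11.51 under vehicle and at 11.45 and 11.16 with clothianidin, where 15.5% of all probe sets were lower without overlap. Vehicle replicate 7 was the highest array for each of the 4 genes, and without it 2 were higher and 2 lower with a median of -0.10. The probe set named for Atg4a carries chromosome 3 in its identifier while RefSeq places Atg4a on chromosome X. The identifiers of the other 37 members named the chromosome RefSeq gives, so which transcript the Atg4a probe set measures is uncertain.

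The ATG8 family, the ubiquitin-like proteins that coat the autophagosome, had 4 of 5 genes higher with a median log2 difference of 0.27, or 3 of 5 with 0.17 after quantile normalization. The median was 0.08 without vehicle replicate 9 or without clothianidin replicate 7, 0.39 without vehicle replicate 7 and 0.43 without clothianidin replicate 6. The arrays within the clothianidin group differed from each other. Gabarap was at 13.16 and 12.44 under vehicle and at 12.65 and 13.82 with clothianidin, so its difference was 1.02 without clothianidin replicate 6 and -0.15 without clothianidin replicate 7. Map1lc3b, the gene of the LC3B marker protein, was at 12.78 and 12.55 and at 12.74 and 13.14, and Gabarapl2 at 12.36 and 12.03 and at 12.31 and 12.62. These 3 genes were highest on clothianidin replicate 7. Map1lc3a had a difference of -0.08 and Gabarapl1 one of 0.08, and 0 of the 5 genes were apart between the groups. The median deviation of the 5 from their own means was 0.03 and -0.25 on vehicle replicates 7 and 9 and -0.06 and 0.29 on clothianidin replicates 6 and 7. For 63 nuclear respiratory chain genes it was 0.11, -0.22, -0.28 and 0.45 in the same order, and their part in the values of the ATG8 family was not tested.

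**Figure D3:**
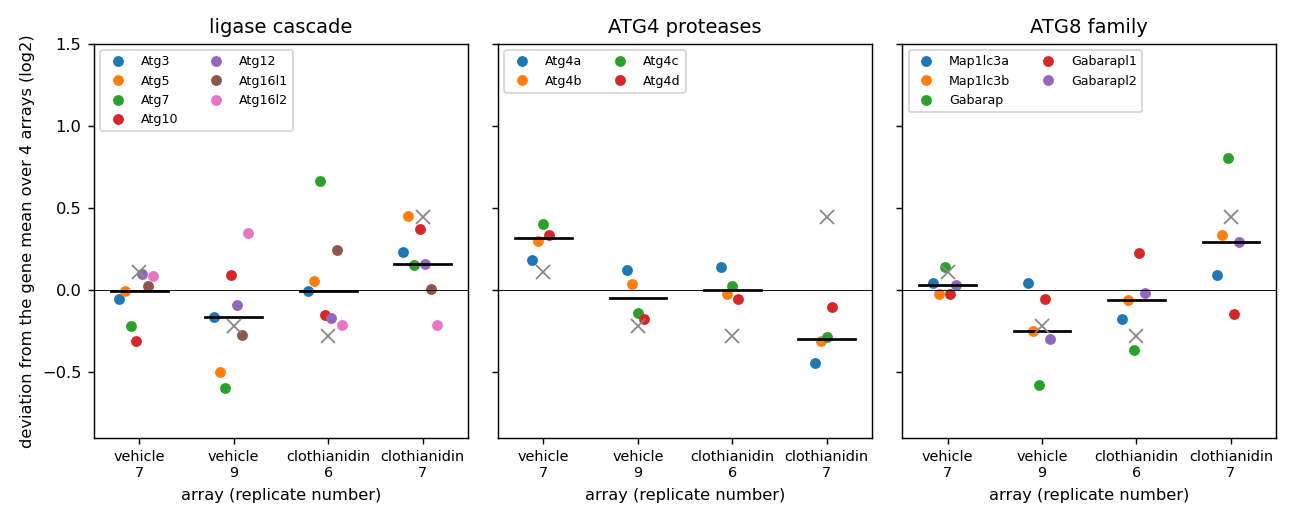
Deviation of each conjugation gene from its own mean over the 4 arrays (y axis, log2) on each array (x axis), for the ligase cascade, the ATG4 proteases and the ATG8 family. Black bars are medians over the genes of a panel and grey crosses the median of 63 nuclear respiratory chain genes; the ATG8 median is 0.29 on clothianidin replicate 7 and -0.06 on clothianidin replicate 6, and the ATG4 median is 0.32 on vehicle replicate 7.

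Cargo receptors link ubiquitinated or other selected cargo to ATG8 proteins, and their 3 measured genes were all lower. Calcoco1, a receptor for parts of the endoplasmic reticulum and Golgi, was at 11.76 and 11.37 under vehicle and at 11.09 and 10.96 with clothianidin, a difference of -0.54 with a standard error of 0.28 (limma adjusted p = 0.997). Tax1bp1, a receptor for ubiquitinated protein aggregates, was at 13.59 and 13.02 and at 12.95 and 12.87. The groups were apart for Calcoco1 by 0.28 and for Tax1bp1 by 0.07, where 15.5% of all probe sets were lower without overlap. Nbr1, another aggregate receptor, was at 12.46 and 12.85 and at 12.69 and 12.25 and overlapped. The difference of Nbr1 turned to 0.01 without vehicle replicate 9 and to 0.04 without clothianidin replicate 7, so the 3 genes were not all lower in those fits.

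Set against the spread within groups, the other members stood apart about as often as all probe sets did. The difference between group means was larger than the wider of the within-group gaps for 8 of the 36 other members, 22.2%, against 19.8% of all probe sets. These 8 were Rb1cc1, Atg5, Atg7 and Pik3c3 on the higher side and Atg9a, Atg4b, Atg16l2 and Calcoco1 on the lower side. Groups did not overlap, whatever the size, for 11 of the 36, 6 higher and 5 lower, where 30.6% of all probe sets did not. Measured from the vehicle mean, 10 of the 36 were above it on both clothianidin arrays and 11 were below it on both, while 15 lay on opposite sides. Over all probe sets 28.1% were above on both and 31.6% below on both.

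**Figure D4:**
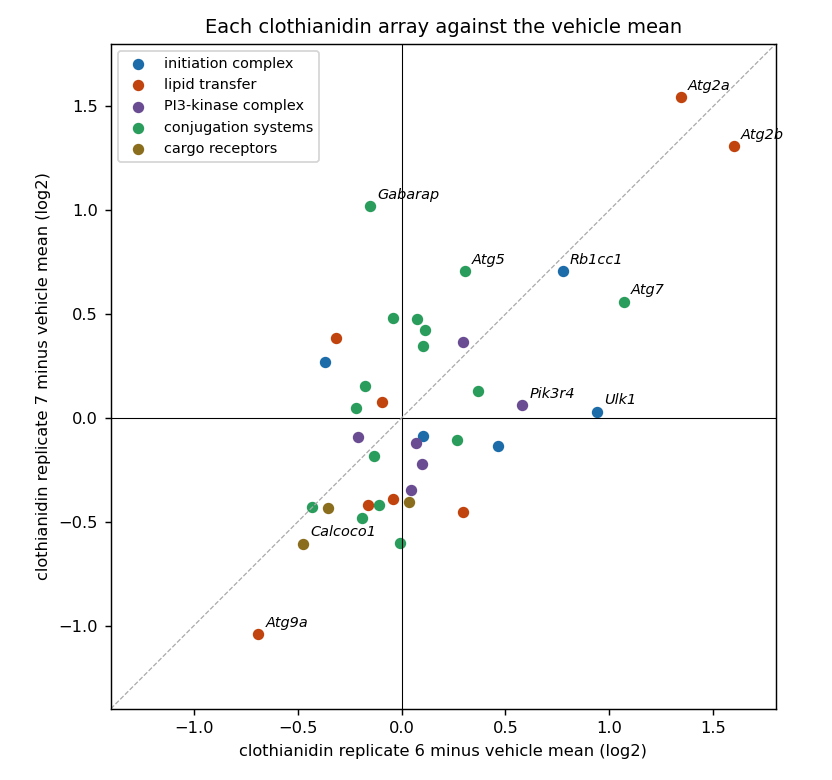
Value of each of the 38 autophagy genes on clothianidin replicate 6 (x axis) and clothianidin replicate 7 (y axis), each minus the vehicle mean (log2), coloured by role; the dashed line marks equal values. Atg2a and Atg2b lie at the upper right on both arrays, Atg9a at the lower left, Ulk1 only to the right and Gabarap only to the top.

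Genes around the core machinery were read from lists of the neighbouring steps. Of 29 measured regulators in the mTORC1, AMPK and TFEB pathways, which set autophagy by nutrient and energy state, 14 were higher and 15 lower with a median log2 difference of -0.01, and after quantile normalization 8 were higher and 21 lower. Without vehicle replicate 7 the split was 20 higher and 7 lower, and without clothianidin replicate 6 it was 11 higher and 18 lower. Stk11, the kinase upstream of AMPK, was at 10.75 and 9.80 under vehicle and at 10.83 and 11.10 with clothianidin. Lamtor2 and Lamtor4, subunits of the complex that anchors mTORC1 to lysosomes, had differences of 0.68 and -0.46. Of 14 genes for fusion of autophagosomes with lysosomes 6 were higher and 8 lower, and 3 were higher and 4 lower without overlap, where 15.1% and 15.5% of all probe sets were. Without clothianidin replicate 6 the split was 3 higher and 11 lower, and without clothianidin replicate 7 it was 9 higher and 5 lower. Stx17, the fusion SNARE of the autophagosome, was at 8.26 and 8.02 and at 7.86 and 7.56, and Vps39, a tethering subunit, at 12.03 and 11.38 and at 11.31 and 10.93. Of the same step, the SNARE gene Stx7 was higher by 0.40.

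Lysosomal protein genes were lower in 16 of 24, with a median log2 difference of -0.11, or in 20 of 24 after quantile normalization, and 3 were lower without overlap, a share below the 15.5% of all probe sets. These were the sialidase gene Neu1 at -0.35, the protective protein gene Ctsa at -0.29 and the membrane protein gene Lamp2 at -0.27. Without vehicle replicate 7 the count turned, and 18 were higher and 6 lower with a median of 0.11. Receptors of mitophagy and of endoplasmic reticulum turnover were higher in 8 of 16 and lower in 8, or higher in 6 and lower in 10 after quantile normalization. Without vehicle replicate 7 the split was 12 to 4. Bnip3, a mitochondrial receptor induced by low oxygen, was at 10.80 and 10.17 under vehicle and at 10.92 and 11.36 with clothianidin, Ccpg1, a receptor on the endoplasmic reticulum, had a difference of 0.47 and Tollip, an adaptor for ubiquitinated cargo, one of -0.38. No gene of the related lists passed limma, with a smallest adjusted p of 0.997.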

How the data were processed

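RNA from 4 cerebellum samples was labelled with biotin after amplification by GeneChip WT kits, as the labels' protocols state. The authors deposited log2 summaries per probe set, and the submitters' processing notes name RMA. Neither its version nor the log base was given in the sources used here, and folds rest on reading the base as 2. Signal over background is unknown.

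Samples were grouped by title. Probe sets were named through the platform annotation, which named 19572 of 22206 with 1 symbol and none with several. A gene with several probe sets was represented by the one with the highest mean. Differences were fitted with limma 3.58.1 in R 4.3.3 (lmFit, eBayes) on all probe sets with Benjamini-Hochberg adjustment at 0.05. The procedure was also run on simulated arrays with independent errors. These held no shifts of a whole array or of tissue composition, so they do not show how it performs on these data. All members are named, and in each related list the 3 genes with the smallest p. The members and lists were chosen with earlier results of these data known. Promoter windows came from RefSeq on GRCm38.p6. Alternatives were median centring, quantile normalization, a filter on level, 1 probe set per gene, other priors or none, other fold thresholds, and leaving out each array in turn.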

Additional observations from a re-analysis of the deposited data

How the results depend on the processing

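No paired analysis was possible because the groups share only the replicate number 7. Other probe sets of a member, or a mean over them, gave no value since each member has 1. The count of probe sets passing adjusted p was 0 except 8 without moderation, and 0 to 1 with an array left out. Of the 36 other members, the number past an unadjusted p was 2 higher and 1 lower. It was 1 and 2 after quantile normalization, 0 and 0 without moderation, 0 to 2 and 0 to 1 with an array left out, and 1 higher with the filter at the median level, which drops Atg7. The number 1.5-fold apart was 2 higher and 1 lower, with 2 lower after quantile normalization, 4 and 5 at the lower fold threshold, 0 and 0 at 2-fold, and 2 to 4 and 1 to 4 with an array left out, where 1 array against 2 more easily fails to overlap. The median of the 36 was -0.0875 to 0.095 with an array left out and 0.0075 after median centring. Signs turned for Wdr45 (-0.0513) and Gabarapl1 (-0.0206) after quantile normalization and for Wdr45b and Atg12 (0.015 each) after median centring. With an array left out, 20 of the 38 members, none of them called, changed sign in at least 1 of 4 fits, and the cause was not tested. A member whose groups do not overlap cannot change sign in these fits, so a kept sign says nothing for the 8 higher and 5 lower members of that kind. Among the 20 that changed sign, the log2 difference ranged from -0.135 to 0.465 for Ulk2, -0.085 to 0.105 for Atg13 and -0.37 to 0.27 for Atg101. It ranged from -0.82 to 0.24 for Atg9b, -0.455 to 0.295 for Wipi1, -0.485 to 0.055 for Wipi2 and -0.315 to 0.385 for Wdr45. The range was -0.105 to 0.085 for Wdr45b, -0.345 to 0.045 for Becn1, -0.51 to 0.21 for Atg14, -0.455 to 0.405 for Uvrag, -0.22 to 0.1 for Ambra1, -0.535 to 0.005 for Atg4c and -0.415 to 0.095 for Atg4d. It was -0.04 to 0.48 for Atg10, -0.175 to 0.155 for Atg12, -0.22 to 0.05 for Map1lc3a, -0.15 to 1.02 for Gabarap, -0.105 to 0.265 for Gabarapl1 and -0.405 to 0.035 for Nbr1.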
